A study of Mus musculus with 8 samples.

Results

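The 10 genes described here encode histone variants and the proteins that place some of them in chromatin: H2afy, H2afy2, H2afz, H2afv, H2afx, H3f3a, H3f3b, Hira, Daxx and Atrx. They were chosen by name and found by their Ensembl identifiers among the 37991 gene IDs of the deposited count table, and all 10 were matched. RNA was counted in B-cell-biased lymphoid progenitors, a bone marrow population upstream of committed B cells, which were sorted after enrichment for Kit-positive cells. One group, H2afy_KO, came from H2afy-/- mice and the other, H2afy_WT, from H2afy+/+ mice, both aged 5 to 12 weeks and without any named treatment. Each group had 4 samples, and each sample was a pool of 5000 to 15000 cells from 2 to 3 mice. Which part of H2afy the deleted allele lacks, the strain background and the sex of the mice are not stated in the labels. The comparison asks what loss of H2afy goes along with in these progenitors.

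Histone variants replace the bulk histones in nucleosomes and can be made outside S phase. MacroH2A, encoded by H2afy and H2afy2, carries a large globular macro domain behind its histone part and is known for its place on silent chromatin. H2A.Z, encoded by H2afz and H2afv, sits at promoters and enhancers. H2AX, encoded by H2afx, is phosphorylated at DNA breaks, among them those of antigen receptor gene rearrangement. H3.3 is encoded by H3f3a and H3f3b, and is placed by HIRA at active genes and by DAXX with ATRX at repeats and telomeres.

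The title of the series concerns the splicing of H2afy. The annotation of the alignment build (GENCODE M1 on NCBIM37, the same assembly as mm9) holds a pair of coding transcripts of H2afy that differ in a single coding exon, on the minus strand of chromosome 13. The longer exon, known from the macroH2A1.2 form, lies at chr13:56191119-56191218 (100 bases) and the shorter, known from the macroH2A1.1 form that binds ADP-ribose, at chr13:56189613-56189703 (91 bases). Each is the fifth coding exon of its transcript. They are printed whole, because the whole exon is the alternative part and a gene count cannot tell them apart.
macroH2A1.2 exon: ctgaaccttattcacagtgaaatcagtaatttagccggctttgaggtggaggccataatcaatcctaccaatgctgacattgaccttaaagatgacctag
macroH2A1.1 exon: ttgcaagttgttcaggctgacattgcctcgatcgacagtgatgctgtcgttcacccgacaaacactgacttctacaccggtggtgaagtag
In a global alignment the exons shared 48 identical positions, with 43 mismatches and 9 gap positions. The deposited table has 1 count per gene, so the share of each form in these pools was not analysed here.

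Sequence copies also bear on these counts, because reads of 50 bases from a repeated stretch cannot be assigned to 1 gene. Every 50-base window of each gene's exons was looked up in the NCBIM37 genome on both strands. H2afy, H2afv, Hira and Daxx had 0 windows with another exact place, and Atrx had 7 of 13328 (0.053%). For H2afz, 662 of 1629 windows (40.6%) occurred elsewhere, and all 185 of its coding windows did. For H3f3a it was 815 of 3210 windows (25.4%) and 245 of 261 coding windows. H3f3b had 552 of 2780 windows (19.9%) with another place, H2afx 82 of 1308 (6.27%) and H2afy2 125 of 1756 (7.12%). The following coding windows are those with the most other places in H2afz (3 other places, chr3:137528502-137528551, plus strand), H3f3a (16, chr1:182733272-182733321, minus strand) and H3f3b (2, chr11:115884981-115885030, minus strand).
H2afz: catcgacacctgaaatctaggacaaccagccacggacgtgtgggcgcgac
H3f3a: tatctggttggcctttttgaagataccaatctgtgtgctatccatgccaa
H3f3b: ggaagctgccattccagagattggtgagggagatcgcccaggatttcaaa
The coding copies of H2afz lay at 4 other loci, and 1 of them, the pseudogene Gm8203 on chromosome 6, held all 185 windows. Gm8203 had 152 to 540 counts per pool against 7056 to 23407 for H2afz. The coding copies of H3f3a lay at 34 loci, where 27 genes are annotated, 17 of them pseudogenes. For H2afx, 82 of 380 coding windows (21.6%) had up to 18 other places, at 16 loci. All genes annotated at those loci summed to 599 to 1007 counts per pool, against 165 to 442 for H2afx itself. This sum takes in other histone genes that lie between copies, and all counts of H2afj, which shared 2 windows. It is therefore not a count of shared reads. The counts of H2afz, H3f3a, H3f3b, H2afx and H2afy2 are therefore uncertain by an amount that depends on how repeated reads were counted, which the labels do not state.

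The pools held 21330088 to 29029765 gene counts. Markers of the labelled cell type were present, with all 10 listed genes among the 13722 tested. Their summed level was 6382 to 7942 CPM (counts scaled to a common library size with TMM factors) in H2afy_KO and 8238 to 10053 CPM in H2afy_WT, so the groups did not overlap. Most of this sum was Dntt (4017 and 5663 CPM on average). Of the 10 markers, 5 did not overlap between the groups, each lower in H2afy_KO. Over all genes tested, 2.35% were lower without overlap and 2.18% higher. Rag1, a recombinase gene, had means of 63.2 ± 28.9 and 198 ± 91.2 CPM (SD, n = 4 each) and a log2 fold change of -1.65 (SE 0.47). Ebf1, a B-lineage transcription factor gene, was at -1.41 (SE 0.45). The log2 fold change was negative for 8 of the 10 markers and positive for 2, Ly6d (0.36, SE 0.23) and Flt3 (0.06, SE 0.14). edgeR called 0 of the 10, and edgeR with the replicate number as a block called Rag1 lower. Over all genes, these fits called 0% and 0.0802% lower. DESeq2 called Rag1 and Ebf1, and DESeq2 with the block 6 of the 10, all lower. These fits called 0.517% and 1.84% of all genes lower. Immunoglobulin transcripts took 0.402% to 39.0% of counts in H2afy_KO and 0.948% to 19.5% in H2afy_WT. A list of 8 plasma and mature B cell markers summed to 3197 to 437191 CPM and 6881 to 155149 CPM. The 8 granulocyte and monocyte markers summed to 818 to 2753 CPM and 1123 to 5133 CPM, the 6 T and NK cell markers to 202 to 376 CPM and 291 to 361 CPM, the 6 erythroid and megakaryocyte markers to 1.37 to 12.7 CPM and 1.93 to 46.1 CPM, and the 4 plasmacytoid dendritic markers to 592 to 909 CPM and 545 to 847 CPM. None of these markers was at 0 in all pools. In these other lists edgeR called 0 genes. DESeq2 called Cd68, Bst2 and Sdc1 higher and Pf4 lower, against 0.343% and 0.517% of all genes. With the replicate block edgeR called Cd68 higher, against 0.0292%. DESeq2 with the block called Cd68 and Bst2 higher and Pf4 lower, against 1.95% and 1.84%. Cd68 read 78.9 ± 13.9 and 28.8 ± 8.05 CPM (SD, n = 4 each), without overlap. The part of other cells in the results below was not tested.

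H2afy was the macroH2A gene of these cells, and H2afy2 was near the limit of detection. H2afy (ENSMUSG00000015937, chromosome 13, 56174980 to 56237722) read 1953, 1744, 1423 and 1517 CPM in H2afy_KO 1 to 4. In H2afy_WT 1 to 4 it read 2455, 2567, 2063 and 1981 CPM. Every H2afy_KO pool was below every H2afy_WT pool, and the means were 1659 ± 238 and 2267 ± 288 CPM (SD, n = 4 each). Between pools of the same number the H2afy_KO value was 0.796, 0.679, 0.690 and 0.766 of the H2afy_WT value, so the gene labelled as deleted kept most of its counts in each of these 4 pairs. The log2 fold change was -0.45 (SE 0.15, 95% interval -0.78 to -0.12), and it did not pass the edgeR quasi-likelihood test over all genes (adjusted p = 0.504). Without both H2afy_KO 3 and H2afy_KO 4, the pools with the most immunoglobulin, it was -0.28 (SE 0.18). With the deleted part unknown, these counts cannot serve as a check of the genotype labels.

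H2afy2 (ENSMUSG00000020086, chromosome 10, 61201391 to 61246895), which encodes macroH2A2, had 36, 8, 16 and 29 counts in H2afy_KO 1 to 4 and 53, 47, 6 and 15 counts in H2afy_WT 1 to 4. That is 0.348 to 1.22 CPM and 0.251 to 1.79 CPM, and the groups overlapped across nearly their whole range. The log2 fold change was -0.25 (SE 0.64, adjusted p = 0.955, edgeR), with a 95% interval of -1.67 to 1.17, which includes a change of 2-fold in either direction. The end of H2afy2 overlaps Aifm2 on the opposite strand. Aifm2 had 103 to 270 counts, more than H2afy2 in every pool, and the kit does not mark strand.

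The H2A.Z genes were among the higher expressed and did not pass the test. H2afz (ENSMUSG00000037894, chromosome 3, 137527451 to 137529886) read 743, 706, 428 and 448 CPM in H2afy_KO 1 to 4. The values of H2afy_WT 1 to 4 were 771, 788, 627 and 533 CPM. H2afy_KO 3 and 4 were the lowest of the 8 pools, whereas H2afy_KO 1 and 2 lay inside the H2afy_WT range. The log2 fold change was -0.23 (SE 0.21, adjusted p = 0.837, edgeR), and without H2afy_KO 3 and 4 it was 0.10. H2afv (ENSMUSG00000041126, chromosome 11, 6327229 to 6344446), whose H2A.Z protein differs from that of H2afz in a few residues, read 120, 129, 89.7 and 107 CPM in the H2afy_KO pools, against 126, 145, 117 and 92.7 CPM in the H2afy_WT pools. Its groups overlapped, with a log2 fold change of -0.11 (SE 0.16, adjusted p = 0.910, edgeR) that was 0.06 without H2afy_KO 3 and 4.

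The pools with least H2afz were also those with the lowest levels of a list of 12 proliferation markers such as Mki67, Top2a and Cdk1. The list summed to 5590, 5517, 3884 and 4222 CPM in H2afy_KO 1 to 4. In the H2afy_WT pools the sums were 6454, 6550, 5444 and 5018 CPM. The log2 fold change was negative for all 12 markers (median -0.31), and 0 of them passed the edgeR test. Without H2afy_KO 3 and 4 it was negative for 9 and positive for 3 (median -0.11). At an unadjusted p under 0.05, 4 of the 12 were lower in edgeR, against 3.69% of all genes. DESeq2 called 0 of the 12 lower, against 0.517% of all genes, and edgeR with the replicate block 0, against 0.0802%. DESeq2 with the block, a fit added once the values were known, called 3 of the 12 lower (Cdk1, Ccnb1 and Rrm2), against 1.84%. The part of proliferation in the levels of H2afz and H2afy was not tested.

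H2afx (ENSMUSG00000049932, chromosome 9, 44142798 to 44144154) read 11.1, 10.8, 10.0 and 12.4 CPM in H2afy_KO 1 to 4. In H2afy_WT 1 to 4 it had 11.0, 16.7, 9.33 and 6.91 CPM. All 4 H2afy_KO values lay within the wider H2afy_WT range. The log2 fold change was 0.02 (SE 0.26, adjusted p = 0.994, edgeR), with a 95% interval of -0.55 to 0.58.

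The H3.3 genes did not differ beyond the spread between pools. H3f3b (ENSMUSG00000016559, chromosome 11, 115883226 to 115889276) read 1037, 1018, 1077 and 933 CPM in the H2afy_KO pools, against 1044, 1086, 1062 and 853 CPM in the H2afy_WT pools. Its log2 fold change was 0.01 (SE 0.13, adjusted p = 0.995, edgeR), and the 95% interval of -0.28 to 0.29 leaves fold values from 0.826 to 1.22. H3f3a (ENSMUSG00000060743, chromosome 1, 182730963 to 182744074) read 202, 144, 143 and 194 CPM in H2afy_KO 1 to 4. The H2afy_WT pools read 211, 155, 143 and 215 CPM. In both groups the pools numbered 1 and 4 were high and those numbered 2 and 3 low, and the groups overlapped (log2 fold change -0.08, SE 0.18, adjusted p = 0.944, edgeR). Gm17275, a long noncoding RNA gene within H3f3a on the opposite strand, had at most 6.65% of the counts of H3f3a in any pool.

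Of the H3.3 chaperone genes, Daxx had the largest difference. Daxx (ENSMUSG00000002307, chromosome 17, 34046359 to 34052534) read 62.7, 44.2, 66.6 and 71.9 CPM in H2afy_KO 1 to 4. The H2afy_WT pools read 53.9, 37.4, 48.4 and 50.5 CPM. H2afy_KO 1, 3 and 4 were above all H2afy_WT pools and H2afy_KO 2 was not. Between pools of the same number the H2afy_KO value was 1.16, 1.18, 1.38 and 1.42 of the H2afy_WT value. The log2 fold change was 0.37 (SE 0.17, 95% interval -0.02 to 0.75), which did not pass (adjusted p = 0.674, edgeR). It was 0.18 (SE 0.21) without H2afy_KO 3 and 4.

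Hira (ENSMUSG00000022702, chromosome 16, 18877130 to 18970402), which encodes a subunit of the HIRA complex, read 20.6, 19.7, 14.1 and 17.3 CPM in the H2afy_KO pools, against 18.4, 23.1, 16.2 and 17.4 CPM in the H2afy_WT pools. The groups overlapped (log2 fold change -0.07, SE 0.18, adjusted p = 0.959, edgeR). Atrx (ENSMUSG00000031229, chromosome X, 102992954 to 103124736), a chromatin remodeler and the partner of DAXX, read 565, 586, 607 and 564 CPM in the H2afy_KO pools, against 602, 566, 629 and 659 CPM in the H2afy_WT pools. Its spread was the narrowest of the 10 genes, with a coefficient of variation of 3.53% in H2afy_KO and 6.42% in H2afy_WT, and its log2 fold change was -0.08 (SE 0.12, adjusted p = 0.910, edgeR). Atrx is X-linked and the pools differed in sex. Xist, the RNA of the inactive X, was at 0.762, 448, 540 and 181 CPM in H2afy_KO 1 to 4, against 1.01, 1.17, 421 and 353 CPM in the H2afy_WT pools. The Y-linked Ddx3y was at 151, 0.522, 1.82 and 117 CPM in the H2afy_KO pools, against 181, 164, 0.586 and 73.3 CPM. Pools with and without Xist occurred in both groups. Atrx read 565, 602 and 566 CPM in the 3 pools near 0 for Xist. It read 586, 607 and 629 CPM in H2afy_KO 2, H2afy_KO 3 and H2afy_WT 3, which were near 0 for Ddx3y. H2afy_KO 4 and H2afy_WT 4, which held both RNAs, read 564 and 659 CPM. The part of sex in the level of Atrx was not tested.

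**Figure D1:**
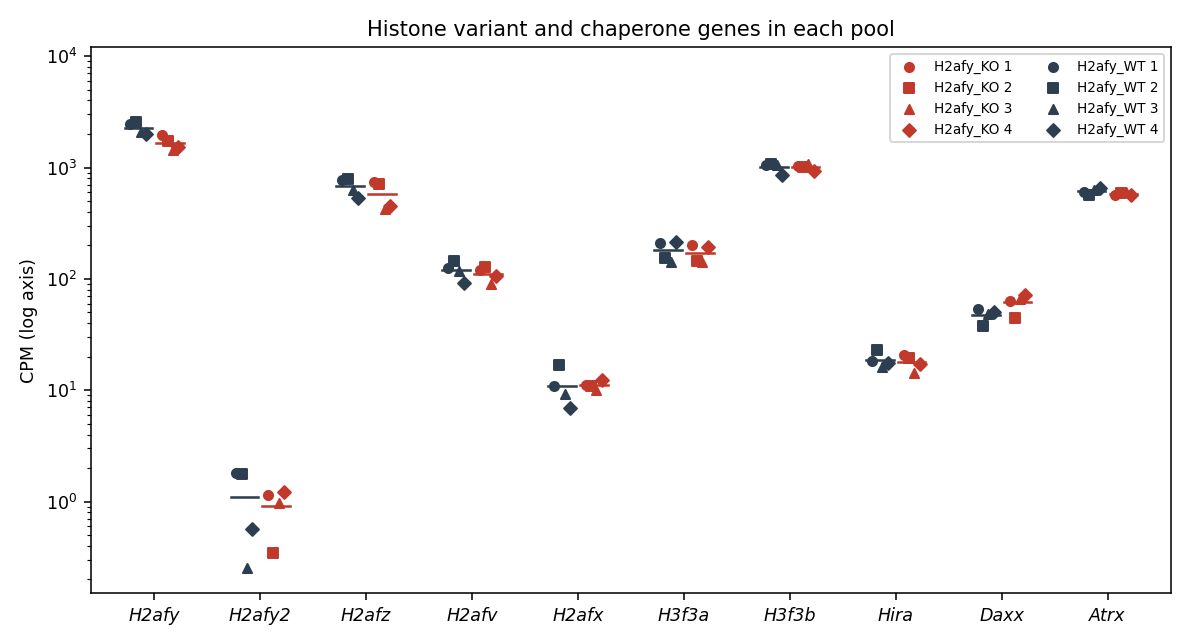
CPM of each gene on a log axis in the 4 H2afy_WT pools (dark) and the 4 H2afy_KO pools (red), with a symbol for each pool number and a bar at the group mean. H2afy separates the groups (1423 to 1953 against 1981 to 2567 CPM), and the other 9 genes overlap.

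Over the 10 genes, 0 passed the edgeR test, where 0% of all 13722 genes were called higher and 0% lower. With no adjustment, p was under 0.05 for 1 lower gene, H2afy, and for 0 higher genes, against 3.69% and 3.88% of all genes. DESeq2 called 0 of the 10 as well, with 0.517% of all genes called lower and 0.343% higher. In the edgeR fit with replicate numbers as a block, 0 of the 10 were called (0.0802% lower and 0.0292% higher over all genes), and H2afy had an adjusted p of 0.0930. Adding the block to DESeq2, which was decided once the values were known, called H2afy lower (log2 fold change -0.45, adjusted p = 0.000226) and none of the other 9, where 1.84% of all genes were called lower and 1.95% higher. The adjusted p of H2afy over all 17 alternative settings ran from 0.000226 to 0.959. The CPM values of the groups did not overlap for 1 of the 10 genes, lower in H2afy_KO, and for 0 genes in the higher direction, beside 2.35% and 2.18% of all genes. The median log2 fold change was -0.08, and over all genes tested it was 0.0007. Of the 10 intervals, 9 lay wholly inside a 2-fold change, H2afy2 being the exception.

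**Figure D2:**
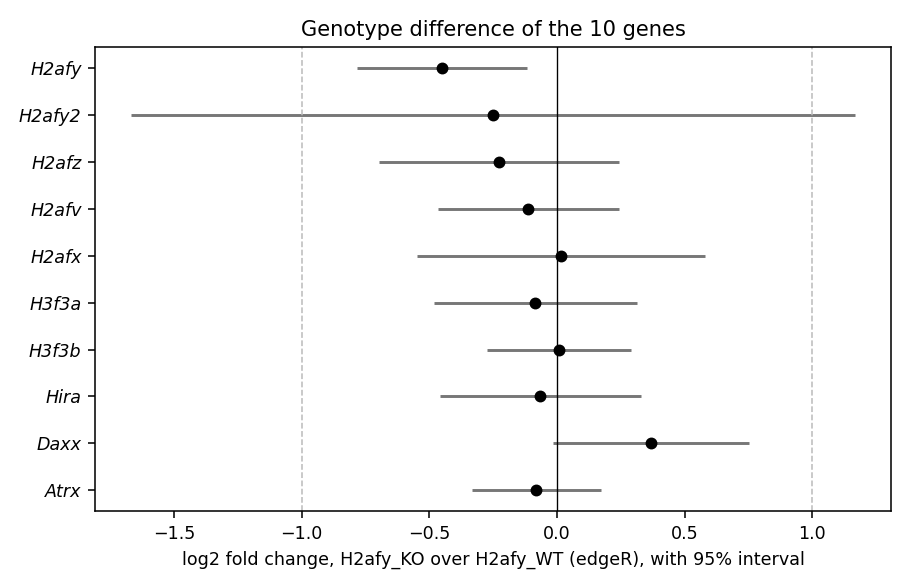
Log2 fold change of H2afy_KO over H2afy_WT for each gene (points) with its 95% interval from the edgeR fit (lines), and dashed lines at a 2-fold change in either direction. The interval of H2afy, -0.78 to -0.12, is the only one without 0, and that of H2afy2 is the only one that crosses a dashed line.

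Levels of different genes were compared per length, as CPM per kilobase in the H2afy_WT pools. With merged exons as the length, H2afz had 383 ± 68.4, H3f3b 340 ± 35.9 and H2afy 333 ± 42.3 CPM per kilobase (SD, n = 4 each), and the ranges of these neighbours overlapped. All 3 were above at least 99.0% of the 13701 genes that could be placed this way. H2afv followed with 73.4 ± 13.3, H3f3a with 51.7 ± 10.7 and Atrx with 40.4 ± 2.60 CPM per kilobase. H2afv lay wholly below H2afy, while the ranges of H2afv and H3f3a, and of H3f3a and Atrx, overlapped. Daxx (15.5 ± 2.34) lay wholly below Atrx and overlapped H2afx (8.09 ± 3.06). Hira (3.56 ± 0.574) and H2afy2 (0.498 ± 0.366) each lay wholly below the gene before it. With the longest transcript or the longest coding transcript as the length, H2afx lay wholly below Daxx, and the ranges of H2afx and Hira overlapped. The annotation holds 8 transcripts of H2afy, 3 of them with a retained intron (the longest of 4018 bases). Its merged exons span 6809 bases, whereas its longest coding transcript has 2046 bases. With the longest coding transcript, a length added once the values were known, H2afy came first at 1108 ± 141 CPM per kilobase, wholly above H2afz at 636 ± 114 and H3f3b at 402 ± 42.5. The place of H2afy among the first 3 therefore depended on the length used. The repeated windows of H2afz and H3f3b also make this order uncertain, by an amount that was not tested.

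**Figure D3:**
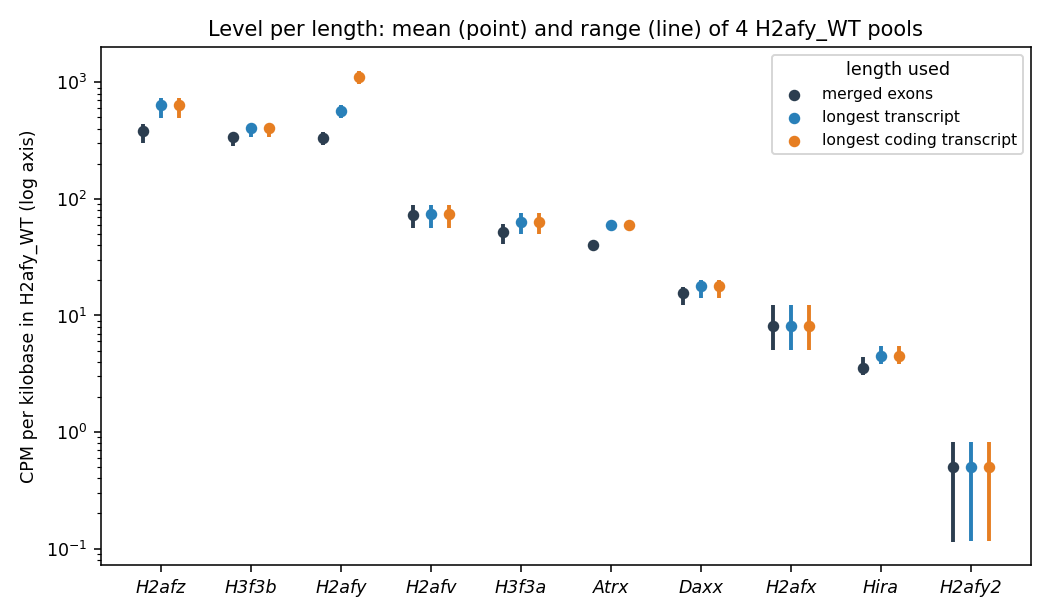
CPM per kilobase in the 4 H2afy_WT pools on a log axis, as mean (points) and range (lines), with 3 ways to set the length of each gene. H2afy moves from 333 to 1108 CPM per kilobase with the length, which changes its place relative to H3f3b and H2afz. The order of the means from H2afv down stays as it is, but which ranges overlap changes for H2afx.

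Shares within a pool do not depend on how libraries are scaled. They do depend on how repeated reads were counted, which is not stated. H2afz took 85.1%, 83.5%, 81.5% and 79.4% of the summed counts per kilobase of H2afz and H2afv in H2afy_KO 1 to 4. The H2afy_WT pools had 85.0%, 83.3%, 83.2% and 84.2%. The H2afz share was lower than in any H2afy_WT pool in H2afy_KO 3 and 4 only, and the groups overlapped. H3f3b took 85.8%, 89.3%, 89.9% and 85.0% of the H3.3 counts per kilobase in H2afy_KO 1 to 4, against 85.3%, 89.2%, 89.8% and 82.4% in the H2afy_WT pools. Pools 2 and 3 were above pools 1 and 4 in both groups. H2afy took 36.4%, 34.6%, 40.8% and 40.5% of the counts per kilobase of the 5 H2A variant genes in H2afy_KO 1 to 4, against 40.9%, 40.9%, 41.2% and 44.5% in the H2afy_WT pools. The groups did not overlap, but H2afy_KO 3 was close to the lowest H2afy_WT pool (40.77% and 40.86%), and with the longest transcript or the longest coding transcript as the length they overlapped. In H2afy_KO 1 and 2 the lower share came with H2afz levels inside the H2afy_WT range, and in H2afy_KO 3 and 4 H2afz and H2afy were both low.

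**Figure D4:**
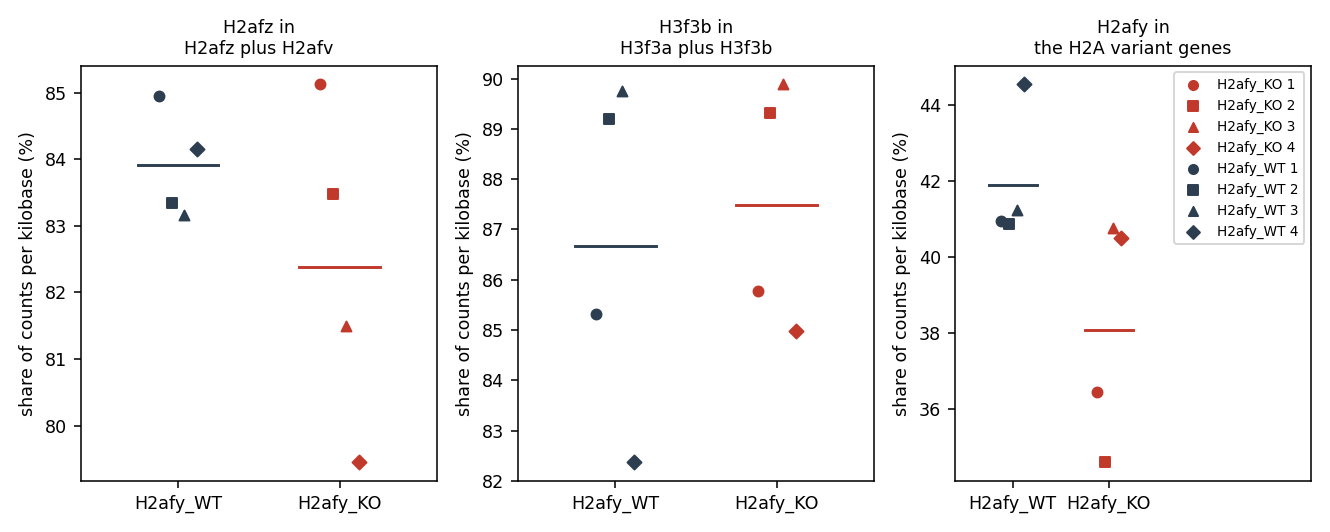
Share of counts per kilobase (merged exons) taken by H2afz within the H2A.Z genes, by H3f3b within the H3.3 genes and by H2afy within the 5 H2A variant genes, in each pool, with group means as bars and axes that do not start at 0. In the middle panel pools 2 and 3 (89.2% to 89.9%) lie above pools 1 and 4 (82.4% to 85.8%) in both groups.

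The partner genes of these variants were read from 8 lists with 79 genes, of which 74 were tested. None passed the edgeR test, the edgeR test with the replicate block or DESeq2. DESeq2 with the block called 2 of the 74 lower, Asf1b and Hjurp, and 0 higher, beside 1.84% and 1.95% of all genes. Before adjustment 1 gene with a positive and 2 with a negative log2 fold change reached 0.05 in edgeR, against 3.88% and 3.69% of all genes, which is no more than the background. Of the 74, 33 had a positive and 41 a negative log2 fold change. Separation of the groups without overlap was seen for 2 of the 74 (2.70%), both higher in H2afy_KO, and for 0 in the lower direction, where all genes gave 2.18% and 2.35%. Those 2 were Sp100 and Supt6h, and Supt6h, which encodes a transcription elongation factor and histone chaperone, was chosen after its value was seen (68.7 ± 3.06 and 61.5 ± 1.18 CPM, SD, n = 4 each).

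Among 12 partners of H3.3 placement the median log2 fold change was near 0 (-0.0006). Asf1b, the ASF1 form of dividing cells that hands H3 and H4 to other chaperones, read 194 ± 55.5 CPM in the H2afy_KO pools, against 285 ± 43.1 CPM (SD, n = 4 each). Its log2 fold change was -0.56 (SE 0.20, adjusted p = 0.527 in edgeR and 0.000561 in DESeq2 with the block). Morc3, which is found in PML bodies, read 155 to 185 CPM in the H2afy_KO pools and 178 to 215 CPM in the H2afy_WT pools. Of the 12 replication-coupled and general chaperones, Nasp, which holds H3 and H4 in reserve, was at -0.29 (SE 0.16) and Chaf1b, a subunit of the chromatin assembly factor CAF-1, at -0.22 (SE 0.12). This list had a median of 0.004. Hjurp, the chaperone of the centromeric H3 variant CENP-A, had 291 ± 43.5 and 366 ± 41.6 CPM (log2 fold change -0.33, SE 0.15, adjusted p = 0.637 in edgeR and 0.0266 in DESeq2 with the block), and Oip5, of the Mis18 complex that primes centromeres, was at -0.24 (SE 0.16). Cenpa itself had 41.4 ± 7.09 and 51.9 ± 9.44 CPM, and the median of the 4 CENP-A deposition genes was -0.20. The groups overlapped in Asf1b, Nasp, Chaf1b, Hjurp and Cenpa.

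The 16 genes of H2A.Z placement and removal had a median log2 fold change of -0.03, with 7 positive and 9 negative. Anp32e, which takes H2A.Z off chromatin, had 614 ± 43.5 and 718 ± 164 CPM (SD, n = 4 each), and Actl6a, an actin-like subunit of several remodelers, read 130 to 245 and 191 to 229 CPM. The 13 genes of H2AX phosphorylation and its readers had a median of -0.03. Their lowest p-values belonged to Atm, a kinase that phosphorylates H2AX, at -0.18 (SE 0.15), and Trp53bp1, a reader of damaged chromatin, at -0.12 (SE 0.14).

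Among 8 tested partners of ATRX and DAXX the median was -0.05. Sp100, a protein of the PML nuclear bodies where DAXX resides, read 335 to 363 CPM in H2afy_KO and 260 to 329 CPM in H2afy_WT, without overlap (log2 fold change 0.28, SE 0.12, adjusted p = 0.633, edgeR). Pml, the scaffold of these bodies, read 129 to 176 and 112 to 148 CPM, with overlap. Daxx, Sp100 and Pml all had a positive log2 fold change, and none passed the test. Of the 8 tested partners, 3 were positive and 5 negative, and Morc3 was at -0.18 (SE 0.12). Of the other histone variants, H2afj, an H2A variant, had 12.9 ± 0.771 and 11.3 ± 2.28 CPM, and 4 of the 7 listed genes were too low to be tested.

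The series concerns the factor U2AF1, and 6 genes of RNA-binding proteins that are splicing factors of the 3′ splice site or act on the exon choice of H2afy were read. U2af1 read 39.2 ± 7.54 CPM in the H2afy_KO pools, against 39.0 ± 10.8 CPM (log2 fold change 0.01, SE 0.21, adjusted p = 0.996, edgeR). Its partner U2af2 had 8.20 ± 1.69 and 9.67 ± 2.59 CPM (SD, n = 4 each), and the helicase gene Ddx17 had a log2 fold change of -0.10 (SE 0.22). The median of the 6 was -0.01, and 0 passed the test. Of 10 genes around H2afy on chromosome 13, 4 were tested, and Tifab was at -0.53 (SE 0.20, adjusted p = 0.566 in edgeR and 0.000997 in DESeq2 with the block) and Smad5 at -0.09 (SE 0.11). The medians of the short lists moved with single pools. The median of the 4 genes near H2afy was -0.19, but 0.28 without H2afy_WT 4 and 0.03 with the edgeR block. The 3 other variants had a median of 0.19, which was -0.04 without H2afy_KO 3. The CENP-A median was -0.12 without H2afy_KO 3 and -0.02 without both H2afy_KO 3 and 4.

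**Figure D5:**
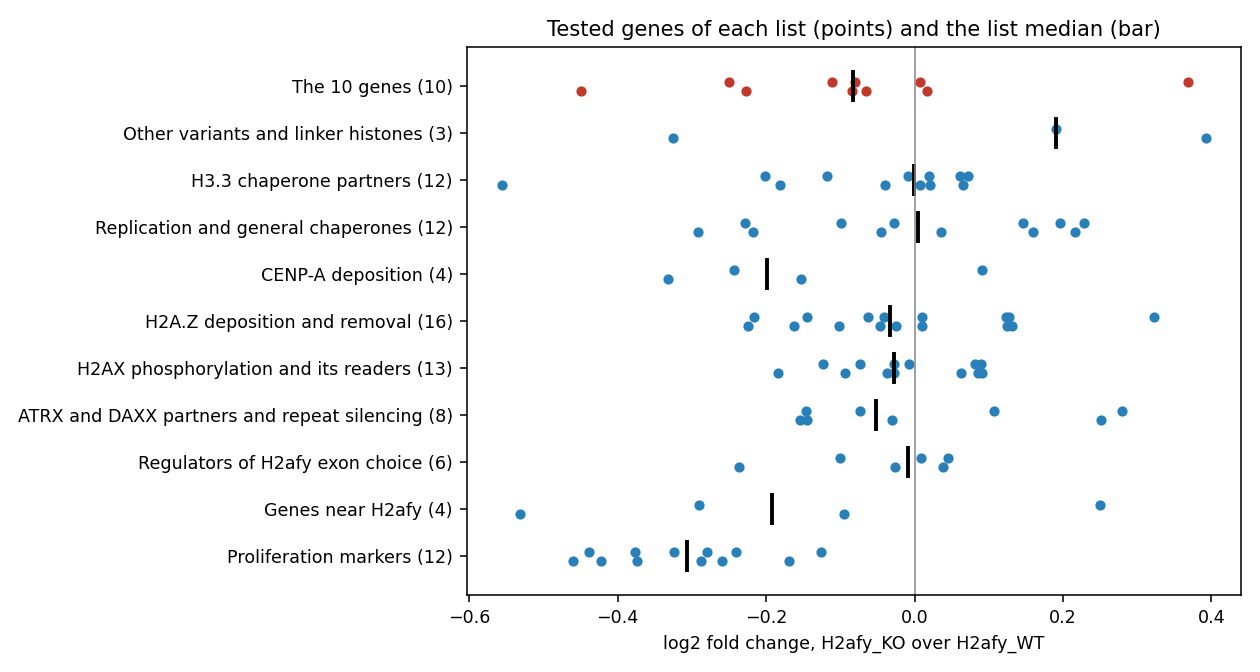
Log2 fold change of H2afy_KO over H2afy_WT for the tested genes of each list (points, number in brackets) and the list median (black bar), with a grey line at the median of all 13722 genes. The sex-linked genes and the cell type markers are not drawn. Of the lists drawn, the medians farthest from 0 are those of the 12 proliferation markers (-0.31), the 4 CENP-A genes (-0.20), the 4 genes near H2afy (-0.19) and the 3 other variants (0.19). The last 2 change sign when a single pool is left out.

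The genes whose log2 CPM profile over the 8 pools was nearest to that of H2afy were looked up among 8225 other genes with a mean of at least 10 CPM. Likeness was the root mean square difference of profiles, each centred on its own mean, and the profile of H2afy itself had an SD of 0.30. The nearest were Gm10075 (0.081), Cdk1 (0.084), the kinase gene of mitotic entry, Patz1 (0.089), which encodes a zinc finger transcription factor, Smarcb1 (0.091), which encodes a subunit of the SWI/SNF remodelers, and Gmfg (0.092). For H2afz, with an SD of 0.35, they were Eed (0.064), which encodes a subunit of Polycomb repressive complex 2, Gm8203 (0.081), Rfc4 (0.084), which encodes a subunit of the replication clamp loader, Pbk (0.090), a mitotic kinase gene, and Ppih (0.090), which encodes a spliceosomal cyclophilin. Gm8203 is the pseudogene that holds all coding windows of H2afz, so reads from those windows cannot be told apart. In bulk pools fewer cells of a type and less RNA per cell cannot be told apart either.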

How the data were processed

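The values the authors deposited are raw counts of reads per gene, in 8 columns named by sample title. Alignment was to mm9 and used HISAT2 2.0.6, according to the submitters' processing notes. Per the labels' protocols, cDNA was made with the SMARTer Ultra Low kit, which keeps no strand. The sources used here give neither the gene counter nor its settings for strand and repeated reads. GENCODE M1 named 37205 of the 37991 gene IDs, and 1 of 148 list symbols matched by a synonym only. Where a symbol had several IDs, the longest protein-coding gene was used.

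Tests were run in R 4.3.3 with edgeR 4.0.16 (quasi-likelihood test, TMM factors, filterByExpr with a minimum count of 10, robust fit), fitted on 13722 genes, with Benjamini-Hochberg adjustment over all of them at 0.05 as the threshold. The coefficient of biological variation came to 0.390. DESeq2 1.42.0 and limma 3.58.1 served as alternatives. The scripts were tested on simulated data. CPM were computed with TMM factors, and log2 CPM with a prior count of 2. No samples repeated each other (the lowest chi-square over its degrees of freedom was 101 among 28 pairs). Whether pools share mice is not stated, and p-values measure the spread between pools, which may be technical.

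Replicate numbers are shared between the groups. Deviations of same-numbered pools from the group means correlated at 0.19, 0.19, 0.36 and 0.41 across genes, all over 0.1. Some pools were closer to another number (0.52 between H2afy_KO 1 and H2afy_WT 2, 0.45 between H2afy_KO 3 and H2afy_WT 4). The pools numbered 2 differed in sex (Xist at 448 CPM in H2afy_KO 2 and 1.17 CPM in H2afy_WT 2). Those numbered 1, 3 and 4 were alike in which of Xist and Ddx3y they held. The pairing is therefore only a hint. The main fit does not use it, and the fits with a block and the ratios of same-numbered pools rest on it.

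The members and lists were chosen with earlier results of these data known. Named genes were the 10 members, the 2 genes of each list with the smallest p (none passed), and the 5 genes nearest to H2afy and to H2afz. Outside this rule, Cenpa, U2af1, the marker genes, the sex-linked genes and the genes that overlap a member were named for what they are. Supt6h, Dntt, Rag1, Ebf1, Ly6d, Flt3, Cd68, Bst2, Sdc1, Pf4 and the proliferation markers that DESeq2 with the block called were named after their values were seen.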

Additional observations from a re-analysis of the deposited data

Results flagged for a closer look

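The share of H2afy in the counts per kilobase of the 5 H2A variant genes was 44.5% in H2afy_WT 4, against 40.9% to 41.2% in the other 3 H2afy_WT pools. The gap to the nearest pool was 0.899 of the group's range, above Dixon's 95% critical value for 4 samples. It was the only flag among 26 groups of 4 values looked at, and chance flags about 1 in 20.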

How the results depend on the processing

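The count of genes called over the whole table was 0 and depended on the test. It was 118 with DESeq2, 15 with the replicate block, 16 with no filter, 5 with upper-quartile factors, 3 without immunoglobulin genes, 520 under DESeq2 with the replicate block and 0 to 1 with each pool left out. The cause was not tested. Of the 10 genes, H2afy under DESeq2 with the replicate block (-0.45, adjusted p = 0.000226) was the only call in 17 alternatives. With the edgeR replicate block H2afy was at -0.45 (SE 0.08) and Daxx at 0.36 (SE 0.11, adjusted p = 0.255), and the block changed no call of the 10. With each pool left out H2afy ran from -0.54 to -0.38 and Daxx from 0.26 to 0.49. H2afy, Daxx and Atrx kept their sign in all 17 alternatives. The sign of H2afy2 turned in 5, of H2afx, H3f3b and Hira in 3 each, and of H2afz, H2afv and H3f3a in 1 each, always without a call. Few counts limit H2afy2 (6 to 53 per pool), and repeated sequence limits H2afz, H3f3a, H3f3b and H2afx.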
